A study of Mus musculus with 6 samples.

Results

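The Eph receptors are the largest family of receptor tyrosine kinases. Here 10 of their genes are described in tissue labelled as dentate neuroepithelium, from mice with intact or floxed Sox11. The members were taken by gene symbol from the deposited table: Epha3, Epha4, Epha5, Epha7, Epha8, Ephb1, Ephb2, Ephb3, Ephb4 and Ephb6, which are 10 of the 35274 genes listed. All 10 had a mean of at least 1 TPM (abundance per unit of transcript length, with the same total in every library) over the libraries and entered the tests. The study profiled poly(A) RNA of the part of the hippocampal ventricular wall that gives rise to the dentate gyrus, dissected on embryonic day 14 per the labels. Wild type mice, heterozygotes carrying 1 floxed Sox11 allele (SOX11f/+) and homozygotes carrying 2 (SOX11f/f) had 2 libraries each. The labels class the floxed genotypes as haplodeficient and homodeficient; the sources used here name no Cre driver or strain and do not say whether a library pooled embryos. The labels also do not say whether replicates are different animals, and every p-value below rests on the library-to-library spread alone, whatever its source.

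Eph receptors sit in the membrane of one cell and bind ephrins on the surface of another, so they signal only on contact. EphA receptors mostly bind the lipid-anchored ephrin-A ligands and EphB receptors the transmembrane ephrin-B ligands, and EphA4 binds both classes. Binding turns on the receptor's kinase and reshapes the actin cytoskeleton of the cell that carries it, while the ephrin can signal back into its own cell. In the developing forebrain the system is known for repelling and sorting axons, for keeping cell populations apart, and later for shaping synapses in the hippocampus.

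Promoter sequences are shown first for 3 receptors with the lowest floxed levels relative to wild type (Epha4, Ephb2 and Ephb1) and for Epha5, whose level was nearly the same in all genotypes. Each run holds the 250 bases before the RefSeq start site on GRCm38.p6, written 5′ to 3′ on the strand of the gene. Capitals mark CCAAT boxes (CCAAT or its reverse complement ATTGG) and, in Ephb1, the Sox-type word AACAATG.
Epha4, chr1:77515089-77515338, minus strand: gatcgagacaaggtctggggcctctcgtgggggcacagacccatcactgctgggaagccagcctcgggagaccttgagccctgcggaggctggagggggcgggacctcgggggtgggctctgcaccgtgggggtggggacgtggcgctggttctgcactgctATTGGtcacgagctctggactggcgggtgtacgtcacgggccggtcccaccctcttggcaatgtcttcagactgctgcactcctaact
Ephb2, chr4:136836013-136836262, minus strand: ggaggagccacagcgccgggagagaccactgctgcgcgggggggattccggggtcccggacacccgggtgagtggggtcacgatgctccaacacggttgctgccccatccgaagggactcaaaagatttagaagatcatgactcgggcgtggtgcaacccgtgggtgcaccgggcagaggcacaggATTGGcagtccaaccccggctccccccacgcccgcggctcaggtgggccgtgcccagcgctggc
Ephb1, chr9:102354694-102354943, minus strand: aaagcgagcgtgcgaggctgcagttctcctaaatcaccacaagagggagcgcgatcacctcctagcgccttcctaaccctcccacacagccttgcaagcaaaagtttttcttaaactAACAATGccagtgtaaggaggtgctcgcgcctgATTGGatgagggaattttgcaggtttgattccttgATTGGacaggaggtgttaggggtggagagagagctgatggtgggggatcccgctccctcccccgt
Epha5, chr5:84417383-84417632, minus strand: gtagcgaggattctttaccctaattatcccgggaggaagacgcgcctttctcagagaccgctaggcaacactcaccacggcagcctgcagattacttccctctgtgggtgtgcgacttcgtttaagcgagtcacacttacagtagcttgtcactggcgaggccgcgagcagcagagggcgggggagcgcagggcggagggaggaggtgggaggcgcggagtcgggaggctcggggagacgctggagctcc
All 10 members were matched in the RefSeq promoter table, in windows of 300 bases that reach past the start. Their windows were rich in G and C, with a median of 65.7% (55.7 to 84.3%) against a median of 52.7% over 27025 promoters. They held a median of 23.5 CG pairs against 7 over all promoters. Counting either strand, CCAAT lay in 6 of 10 windows and in 37.9% of all promoters, AACAATG in 1 of 10 and in 3.87%, and AACAAAG in 0 of 10 and in 5.79%. None of the searched words contains another, and a match or its lack describes these letters only.

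Sox11 itself followed the labels, at 191.93 and 130.18 TPM in wild type, 56.1 and 50.1 TPM in heterozygous and 5.23 and 5.06 TPM in homozygous libraries. Markers of the labelled tissue were present throughout, but the cortical and hippocampal transcription factors Lhx2 and Emx2 were lower in every floxed library. Wild type libraries held 304 and 239 TPM of Lhx2, while the floxed ones ranged from 223 to 236 TPM. For Emx2 the wild type values were 109.93 and 76.21 TPM, and the floxed range was 58.8 to 65.1 TPM. The cause of these differences was not tested. Wnt8b, a signal of the dorsomedial wall, was low and overlapped between genotypes, with a range of 3.51 to 7.81 TPM. Genes of mature brain were present as well in every library, among them Gfap of astrocytes at 268 to 576 TPM and Slc17a7, the vesicular glutamate transporter of excitatory neurons, at 79.8 to 393 TPM. Ttr, the main product of choroid plexus, stood at 11259 TPM in heterozygous replicate 1 and at 6421 TPM in homozygous replicate 1, against 2.04 to 184 TPM in the other libraries. The table holds no read depth.

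Together the 10 receptor genes summed to less in each floxed library than in either wild type library. Epha6, described further below, is not a member and is in none of these sums. The summed level was 639 and 604 TPM in wild type, 436 and 456 TPM in heterozygous and 417 and 495 TPM in homozygous libraries. The EphA genes summed to 430 and 438 TPM in wild type and to 298 to 360 TPM in floxed libraries. For the EphB genes the sums were 209 and 166 TPM in wild type and 119 to 135 TPM in floxed libraries. Neither of these sums overlapped between wild type and floxed libraries. Epha4 was the largest part of the EphA sum, at 256 and 243 TPM in wild type and 143 to 169.85 TPM in floxed libraries. Epha5, Epha8 and Ephb4 overlapped between wild type and floxed libraries, so the sums do not speak for each gene. EphB genes made up 27.2 to 32.7% of the summed TPM of the 10 members over the 6 libraries.

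**Figure D1:**
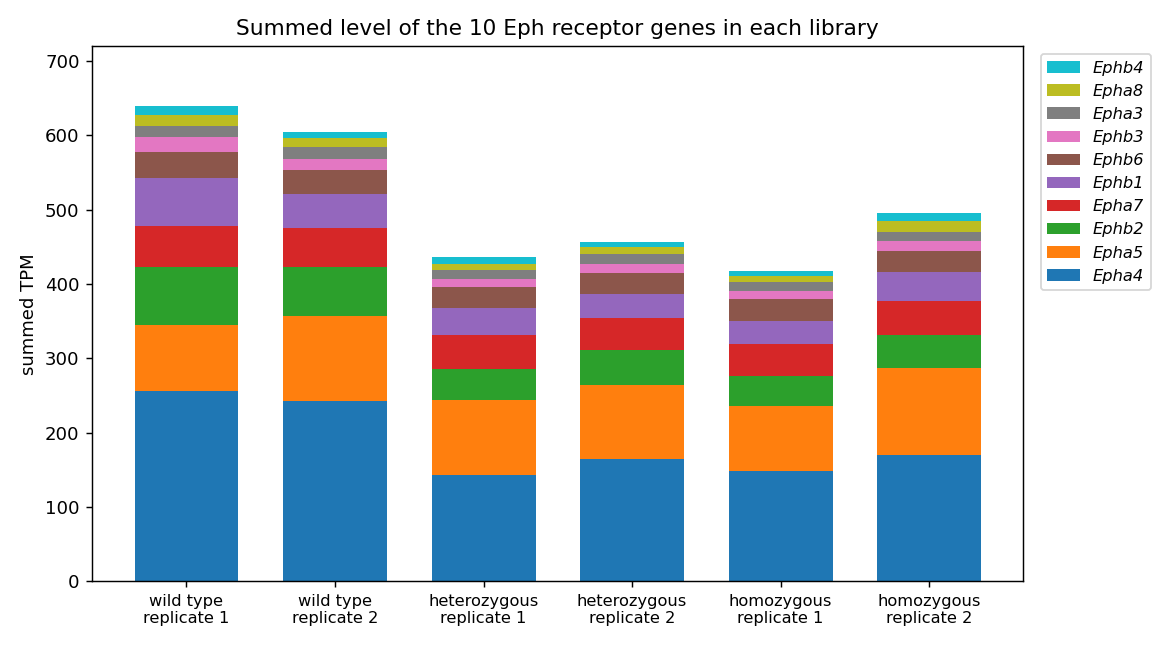
Stacked bars give the TPM of the 10 Eph receptor genes in each of the 6 libraries (y axis, summed TPM; x axis, library). The wild type bars reach 639 and 604 TPM and the floxed bars 417 to 495 TPM, and the Epha4 segment at the base differs most in TPM.

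No receptor passed the test in any comparison, although nearly all had a lower mean in floxed libraries. With limma over 14518 genes and Benjamini-Hochberg adjustment at 0.05, 0 of 10 members were called in heterozygous against wild type libraries, where 0.0344% of all genes were called. The count was also 0 of 10 in homozygous against wild type (background 0.0413%), in homozygous against heterozygous (0.0138%) and in the linear trend over 0, 1 and 2 floxed alleles (0.0138%). Sox11, the floxed gene itself, also went uncalled in heterozygous tissue, at -1.56 against wild type (limma adjusted p = 0.105). The 0 of 10 there therefore does not show that the receptors were unchanged. Sox11 was called in homozygous tissue against wild type (limma adjusted p = 0.00082), between the floxed genotypes (0.0073) and in the trend (0.027). At an unadjusted p under 0.05, 6 of 10 members were lower in heterozygous than in wild type libraries, against 7.63% of all genes. The same count was 5 of 10 in homozygous against wild type libraries (background 9.80%) and 5 of 10 in the trend (10.4%). Between the floxed genotypes it was 0 of 10 in either direction, with 0.902% of all genes lower. The fitted log2 fold change was below 0 for 10 of 10 receptors in heterozygous against wild type libraries (background 59.8%) and for 9 of 10 in homozygous against wild type libraries and in the trend (55.2% in each). Between homozygous and heterozygous libraries it was below 0 for 4 of 10 (background 45.9%). The median log2 fold change of the members was -0.40 in heterozygous and -0.31 in homozygous libraries, where the medians of all genes were -0.061 and -0.036. Both comparisons share the wild type libraries, so they are not separate evidence. The members were chosen with earlier results of these data known, so their counts beside the shares of all genes are descriptive only.

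Counted without a model, 7 of 10 receptors had all 4 floxed libraries below both wild type libraries, as did 21.0% of all genes tested. These are Epha3, Epha4, Epha7, Ephb1, Ephb2, Ephb3 and Ephb6. The same choice of members makes the counts in this paragraph descriptive only. In heterozygous libraries alone 8 of 10 lay below both wild type libraries (background 28.9%), Epha8 being the eighth. In homozygous libraries alone 7 of 10 did (background 30.7%). No receptor had both homozygous libraries below both heterozygous ones (0 of 10, background 13.7%). Without any 1 library, or without the 2 libraries richest in Ttr, the 3 counts against wild type were 7 to 9, 8 to 9 and 7 to 10, while the shares of all genes were 23.0 to 44.5%, 28.9 to 52.3% and 30.7 to 51.1%. The counts of 9 for all floxed libraries (without wild type replicate 2) and of 10 for homozygous libraries (without homozygous replicate 2) stood beside shares of 44.5% and 43.2%.

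**Figure D2:**
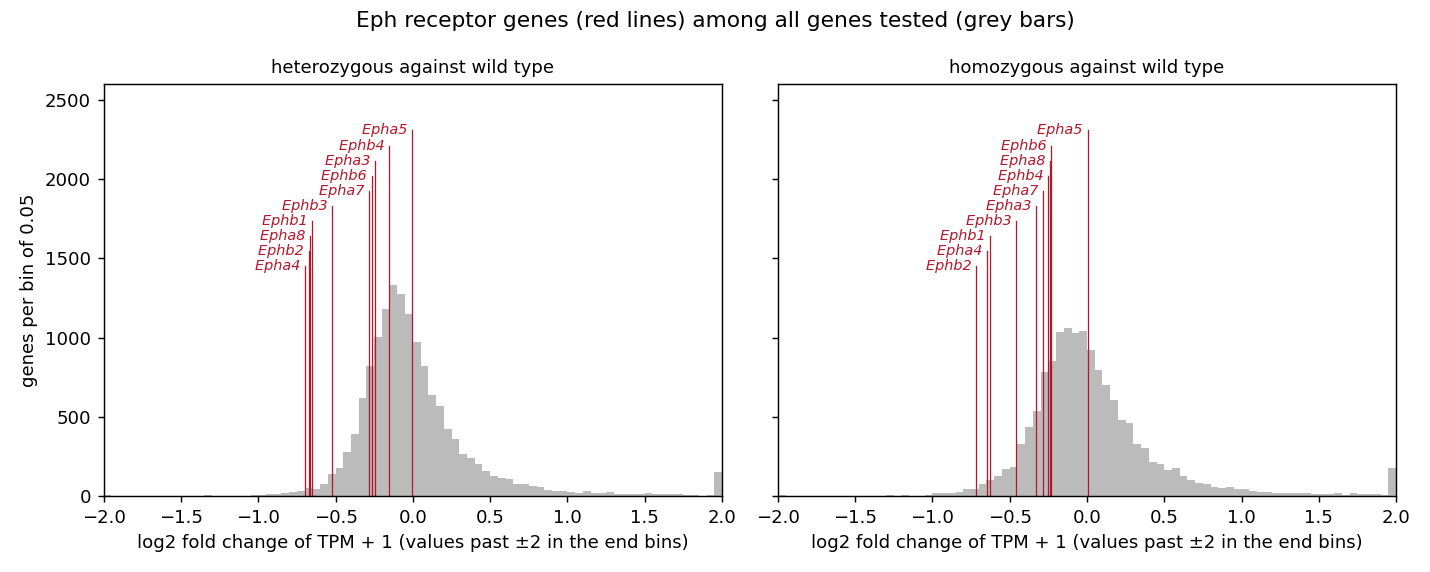
Grey bars count all tested genes by log2 fold change against wild type (x axis, log2 of TPM + 1; y axis, genes per bin of 0.05), and red lines mark the 10 Eph receptor genes. The receptors spread from -0.70 to -0.0040 in heterozygous and from -0.72 to 0.0041 in homozygous libraries, with medians of -0.40 and -0.31.

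Epha4 (ENSMUSG00000026235.14), the receptor that binds both ephrin classes and steers corticospinal and other forebrain axons, was the most abundant member in every genotype. It is a protein-coding gene, as are all members, and spans 77367185 to 77515088 of chromosome 1 (GRCm38, minus strand). Its level was 256 and 243 TPM in wild type, 143 and 164 TPM in heterozygous and 148 and 169.85 TPM in homozygous libraries. All 4 floxed libraries lay far below both wild type ones, and the floxed genotypes overlapped each other. The means were 249 ± 9.12, 154 ± 14.8 and 159 ± 15.2 TPM (SD, n = 2 each). The log2 difference of TPM + 1, the scale of every fold change here, was -0.70 in heterozygous libraries (SE 0.11, 95% confidence interval -0.96 to -0.43, limma adjusted p = 0.132). In homozygous libraries it was -0.65 (SE 0.11, interval -0.91 to -0.38, limma adjusted p = 0.0707). By unadjusted p, Epha4 ranked 47th and 146th of 14518 genes in these comparisons. Between homozygous and heterozygous libraries the difference was 0.049, with an interval of -0.21 to 0.31. The slope per floxed allele was -0.32 (SE 0.093, limma adjusted p = 0.151).

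The call for Epha4 differed between fits. In homozygous against wild type tissue Epha4 passed when only those 4 libraries were fitted (limma adjusted p = 0.0343). Leaving out either heterozygous library nearly repeats that fit, because the lone library left has its own mean and adds nothing to the spread. These fits are therefore not separate evidence. In each of these fits the difference was -0.65 and its SE 0.11, as with all 6 libraries, and the cause of the lower adjusted p was not tested. In heterozygous against wild type tissue it passed without heterozygous replicate 2 (-0.79, limma adjusted p = 0.0326, with the lone library assumed to vary like the other groups). The slope passed without heterozygous replicate 1 (limma adjusted p = 0.0447). Over all 14 alternatives the limma adjusted p of Epha4 ran from 0.0326 to 0.777 for heterozygous and from 0.0337 to 0.468 for homozygous against wild type, and the difference stayed below 0 in each of them.

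Epha5 (ENSMUSG00000029245.16), a receptor of ephrin-A ligands known for topographic maps such as the hippocampal projection to the septum, was second in level in every genotype and did not follow Epha4. It spans 84054761 to 84417382 of chromosome 5 (minus strand). It measured 88.5 and 114.52 TPM in wild type, 100.54 and 100.27 TPM in heterozygous and 86.9 and 117 TPM in homozygous libraries. The homozygous replicates were the lowest and the highest of all 6 libraries, so the genotypes overlapped fully. The log2 difference was -0.0040 in heterozygous (interval -0.42 to 0.41) and 0.0041 in homozygous libraries (interval -0.41 to 0.42). These intervals hold differences of either sign, and the sign for heterozygous tissue turned with rescaling by a trimmed mean (0.064) and without wild type replicate 2 (0.18). The sign for homozygous tissue turned without wild type replicate 1 (-0.18) and without homozygous replicate 2 (-0.21).

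The balance of the leading EphA receptors differed between libraries. Epha4 was 2.89 and 2.12 times Epha5 in wild type, 1.43 and 1.64 times in heterozygous and 1.71 and 1.45 times in homozygous libraries, with no overlap between wild type and floxed libraries. Epha4 held 40.1 and 40.2% of the summed TPM of the 10 members in wild type and 32.9 to 36.0% in floxed libraries. Epha5 held 13.9 and 18.9% in wild type and 20.8 to 23.7% in floxed libraries. The ratio was not tested. With 2 wild type against 4 floxed libraries, an exact permutation test could reach no two-sided p under 0.067.

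Epha7 (ENSMUSG00000028289.12), a receptor that limits the reach of corticothalamic and hippocampal projections, spans 28813131 to 28967499 of chromosome 4 (plus strand). It measured 55.1 and 52.6 TPM in wild type, 45.2 and 43.1 TPM in heterozygous and 42.6 and 45.5 TPM in homozygous libraries. Every floxed library was below wild type by a small and even margin, and the replicates were close. The log2 difference was -0.28 in heterozygous (SE 0.10, limma adjusted p = 0.320) and -0.29 in homozygous libraries (SE 0.10, limma adjusted p = 0.217).

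Epha3 and Epha8 were the least abundant EphA members. Epha3 (ENSMUSG00000052504.6, chromosome 16, 63543534 to 63864175, minus strand), a receptor best known from the map of retinal axons in the midbrain, measured 15.32 and 15.28 TPM in wild type, 12.6 and 12.9 TPM in heterozygous and 11.04 and 12.9 TPM in homozygous libraries. Wild type and floxed libraries did not overlap, with log2 differences of -0.25 (SE 0.15, limma adjusted p = 0.477) and -0.33 (SE 0.15, limma adjusted p = 0.293). Epha8 (ENSMUSG00000028661.8, chromosome 4, 136929419 to 136956816, minus strand) is another receptor of ephrin-A ligands, and its replicates were uneven. It measured 14.9 and 12.9 TPM in wild type, 7.66 and 9.17 TPM in heterozygous and 9.18 and 14.7 TPM in homozygous libraries. Homozygous replicate 1 resembled the heterozygous libraries and homozygous replicate 2 lay between the wild type ones. Its log2 difference was -0.67 in heterozygous (SE 0.24, limma adjusted p = 0.320) and -0.24 in homozygous libraries (SE 0.24, limma adjusted p = 0.603). Without homozygous replicate 1 the latter was 0.073.

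Among EphB genes, Ephb2 (ENSMUSG00000028664.14), a receptor of ephrin-B ligands that guides commissural axons and binds NMDA receptors at hippocampal synapses, was the most abundant. It spans 136647539 to 136835988 of chromosome 4 (minus strand). Its level was 78.8 and 65.0 TPM in wild type, 42.2 and 46.9 TPM in heterozygous and 41.5 and 44.75 TPM in homozygous libraries. Wild type stood apart from all floxed libraries, which lay within a narrow band. The means were 71.9 ± 9.72, 44.5 ± 3.30 and 43.1 ± 2.28 TPM (SD, n = 2 each). The log2 difference was -0.67 in heterozygous (SE 0.13, interval -0.98 to -0.37, limma adjusted p = 0.180) and -0.72 in homozygous libraries (SE 0.13, interval -1.02 to -0.41, limma adjusted p = 0.0793). Homozygous and heterozygous libraries differed by -0.044, with an interval of -0.35 to 0.26. In homozygous against wild type tissue Ephb2 passed with those 4 libraries alone (limma adjusted p = 0.0477). Leaving out either heterozygous library nearly repeats that fit, as for Epha4, and is not separate evidence. The slope of Ephb2 per allele was -0.36 without heterozygous replicate 1. Over all alternatives the limma adjusted p for homozygous against wild type ran from 0.0477 to 0.465.

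Ephb2 and Epha8 lie 93.4 kb apart on the same strand of chromosome 4. Distances were taken between Eph receptors only, so other genes may lie between them. Both were lower in heterozygous than in wild type libraries by about the same log2 difference (-0.67 each), while in homozygous replicate 2 Ephb2 stayed at 44.75 TPM and Epha8 stood at 14.7 TPM. The 10 genes lie on 6 chromosomes, 3 of them on chromosome 4. None shared a run of 50 bases with the transcripts of another Eph receptor. With transcripts of other genes, Epha4 shared 7 of its 8145 runs of that length (245 genes), Epha5 24 of 16763 (11 genes), Ephb2 23 of 12650 (3 genes) and Ephb3 8 of 6777 (26 genes), and the other 6 members shared 0.

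Ephb1 (ENSMUSG00000032537.15), the receptor that turns retinal axons to the same side of the brain, spans 101922128 to 102354693 of chromosome 9 (minus strand). It measured 64.0 and 46.4 TPM in wild type, 36.6 and 32.3 TPM in heterozygous and 31.2 and 39.2 TPM in homozygous libraries. Wild type replicate 1 was well above replicate 2, and both exceeded every floxed library. The log2 difference was -0.65 in heterozygous (SE 0.19, interval -1.10 to -0.20, limma adjusted p = 0.282) and -0.63 in homozygous libraries (SE 0.19, interval -1.07 to -0.18, limma adjusted p = 0.171). Without wild type replicate 1 these were -0.42 and -0.40, and without wild type replicate 2 they were -0.88 and -0.85.

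Ephb3 (ENSMUSG00000005958.14, chromosome 16, 21204755 to 21223305, plus strand), which acts beside EphB2 in commissural axons and in sorting gut epithelium, was lower by a similar fraction at a lower level. It measured 20.1 and 15.0 TPM in wild type, 11.2 and 12.4 TPM in heterozygous and 11.5 and 13.2 TPM in homozygous libraries. Its log2 difference was -0.52 in heterozygous (SE 0.18, limma adjusted p = 0.317) and -0.46 in homozygous libraries (SE 0.18, limma adjusted p = 0.260), with no overlap between wild type and floxed libraries. Without wild type replicate 1 these were -0.32 and -0.26, and without wild type replicate 2 they were -0.72 and -0.66.

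Ephb6 (ENSMUSG00000029869.7, chromosome 6, 41605482 to 41620509, plus strand) encodes a receptor whose kinase domain is inactive and which signals through partner receptors. It measured 35.05 and 31.8 TPM in wild type, 27.4 and 27.7 TPM in heterozygous and 28.9 and 27.6 TPM in homozygous libraries. The floxed libraries agreed closely and all lay below wild type. The log2 difference was -0.27 in heterozygous (SE 0.11, limma adjusted p = 0.357) and -0.23 in homozygous libraries (SE 0.11, limma adjusted p = 0.327).

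Ephb4 (ENSMUSG00000029710.15, chromosome 5, 137350109 to 137378669, plus strand), the receptor of venous endothelium that binds ephrin-B2, was the lowest member and overlapped in all genotypes. It measured 10.99 and 7.88 TPM in wild type, 9.30 and 7.37 TPM in heterozygous and 5.96 and 9.82 TPM in homozygous libraries. Summed markers of endothelium were 228 and 156 TPM, 178 and 186 TPM, and 120.5 and 261 TPM in the same libraries. Homozygous replicate 1 was lowest for both and the part of vessel content in the level of Ephb4 was not tested. Its log2 differences were -0.15 (SE 0.27, limma adjusted p = 0.815) and -0.25 (SE 0.27, limma adjusted p = 0.639), which turned to 0.064 without wild type replicate 1 and to 0.068 without homozygous replicate 1.

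**Figure D3:**
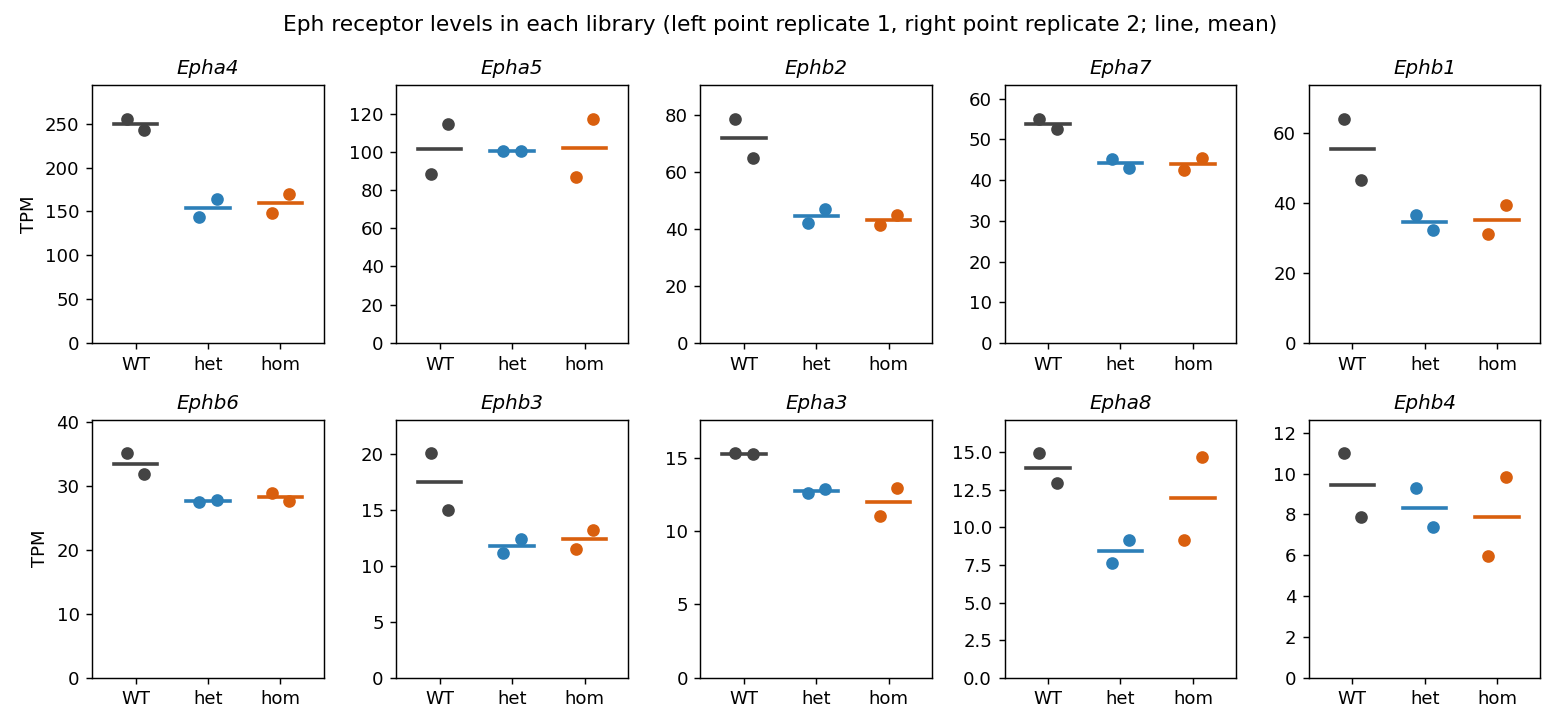
Each panel gives 1 receptor gene, with points for the 2 libraries of each genotype and a line at their mean (y axis, TPM from 0; x axis, WT for wild type, het for heterozygous, hom for homozygous). In 7 panels, among them Epha4 and Ephb2, all 4 floxed points lie below both wild type points, while Epha5, Epha8 and Ephb4 overlap.

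**Figure D4:**
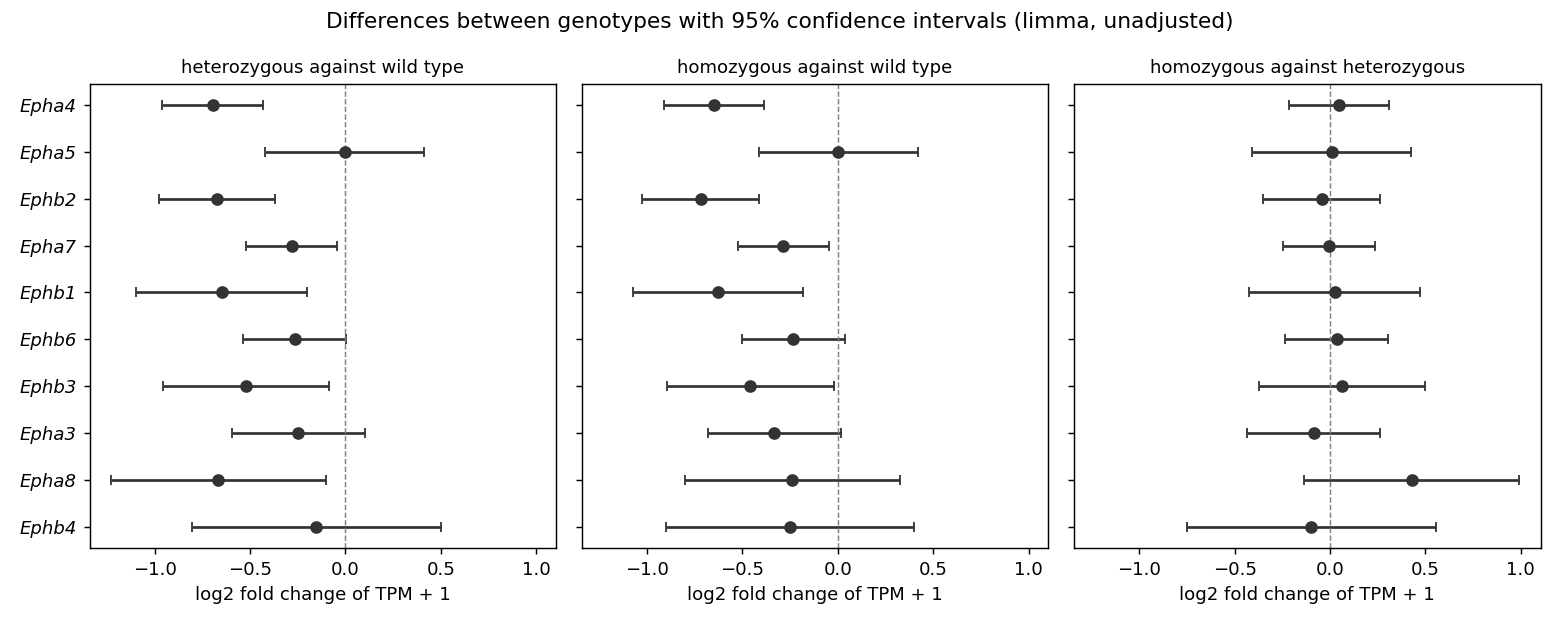
Points are limma log2 differences of TPM + 1 with 95% confidence intervals, unadjusted, for the 10 receptors in the 3 pairwise comparisons (x axis, log2 fold change). Against wild type the intervals of Epha4, Epha7, Ephb1, Ephb2 and Ephb3 lie below 0 in both floxed genotypes, and between the floxed genotypes all 10 intervals include 0.

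The order of the levels, which TPM allows to be compared between genes, was similar in the 3 genotypes. In wild type it ran Epha4, Epha5, Ephb2, Ephb1, Epha7, Ephb6, Ephb3, Epha3, Epha8 and Ephb4. Of the 9 neighbouring pairs 7 did not overlap between their libraries, and Ephb1 and Epha7 as well as Ephb3 and Epha3 did. In heterozygous libraries Epha7 stood above Ephb1 without overlap and level with Ephb2, at 44.2 ± 1.49 and 44.5 ± 3.30 TPM (SD, n = 2 each). There Epha3 also stood above Ephb3 without overlap (means 12.74 and 11.8 TPM), and Epha8 and Ephb4 overlapped (means 8.415 and 8.335 TPM). In homozygous libraries Epha7 and Ephb2 again overlapped, at 44.0 ± 2.04 and 43.1 ± 2.28 TPM, and so did each neighbouring pair from Ephb3 through Epha3 and Epha8 to Ephb4.

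The other family members in the table were low or uneven. Epha6, another receptor of the EphA class, measured 18.1 and 30.1 TPM in wild type, 19.3 and 27.9 TPM in heterozygous and 23.1 and 27.7 TPM in homozygous libraries, with full overlap. Its mean of 24.4 TPM was above those of the members Ephb3 (13.9 TPM), Epha3 (13.3 TPM), Epha8 (11.4 TPM) and Ephb4 (8.55 TPM). Epha10, Epha2 and Epha1 did not exceed 1.88 TPM in any library, and of these only Epha10 entered the tests. Neither Epha6 nor Epha10 was called. In heterozygous and homozygous libraries the log2 differences were -0.0086 and 0.11 for Epha6 and -0.070 and 0.37 for Epha10.

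Ephrin ligands had a median difference near 0. Their 8 genes summed to 242 and 260 TPM in wild type, 239 and 267 TPM in heterozygous and 282 and 232 TPM in homozygous libraries. Among them 0 of 8 were called by limma in any of the 4 comparisons, with a median log2 difference of 0.016 in heterozygous and 0.019 in homozygous libraries. At an unadjusted p under 0.05, 0 of 8 were lower in heterozygous (7.63% of all genes) and 2 of 8 in homozygous libraries (9.80%), and 0 of 8 were higher in either (6.42% and 8.35%). These were Efna4, at 16.2 and 11.65 TPM (wild type) against 8.11 and 6.46 TPM (homozygous; -0.84, SE 0.24, limma adjusted p = 0.165), and Efna2, at 23.8 and 25.3 TPM (wild type) against 20.3 and 16.9 TPM (homozygous; -0.39, SE 0.14, limma adjusted p = 0.229). Efnb3, the ligand gene with the highest mean TPM, had 117 ± 13.6, 118 ± 19.9 and 129 ± 16.8 TPM from wild type through heterozygous to homozygous (SD, n = 2 each).

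Of 39 partners and effectors of Eph receptors 0 were called by limma in any of the 4 comparisons. At an unadjusted p under 0.05, 8 of 39 were lower and 0 higher in heterozygous against wild type libraries, where 7.63% of all genes were lower and 6.42% higher. In homozygous against wild type libraries 10 of 39 were lower and 1 higher, where 9.80% of all genes were lower and 8.35% higher. Chn2, a chimaerin that inactivates Rac, measured 38.6 and 43.1 TPM in wild type, 28.1 and 30.1 TPM in heterozygous and 22.3 and 25.1 TPM in homozygous libraries (homozygous against wild type -0.76, SE 0.12, limma adjusted p = 0.0696). Itsn1, an exchange factor for Cdc42 that works with EphB2, stood at 88.7 and 87.6 TPM, 69.5 and 71.8 TPM, and 60.3 and 66.3 TPM in the same order (-0.47, SE 0.094, limma adjusted p = 0.0984). Ngef, the ephexin that EphA receptors engage, was the 1 higher gene, at 11.6 and 13.3 TPM (wild type) against 17.2 and 23.7 TPM (homozygous; 0.66, SE 0.19, limma adjusted p = 0.160). Grip2, a PDZ scaffold of ephrin-B and AMPA receptors, had 6.2 and 5.6 TPM (wild type) against 3.24 and 2.47 TPM (homozygous; -0.85, SE 0.25, limma adjusted p = 0.166).

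By the pattern of log2(TPM + 1) over the 6 libraries, the genes most like Epha4 among 11452 with a mean of at least 5 TPM were Lrrc47 (Pearson r = 0.996), Nol4l (0.995), Ubap2 (0.994), Sema6a (0.993) and Dpf3 (0.993). Dpf3, a subunit of the BAF chromatin complex, had 53.8 and 45.2 TPM (wild type) against 23.2 to 28.8 TPM (floxed). Sema6a, a transmembrane semaphorin, had a smaller span, with 30.2 and 29.2 TPM (wild type) against 25.15 to 26.8 TPM (floxed). Within the family Ephb2 was closest to Epha4 (r = 0.976, place 39), followed by Epha7 (0.946), Ephb3 (0.926), Epha3 (0.923), Ephb6 (0.909), Ephb1 (0.889), Epha8 (0.771), Ephb4 (0.438) and Epha5 (0.0867). These coefficients describe 6 libraries that also share a genotype difference and a fixed TPM total.

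Some marker lists of cell types separated wild type from floxed libraries, and each sum was also taken without its most abundant gene, an alternative chosen after seeing the data. In bulk tissue, fewer cells of a type and less RNA per cell cannot be told apart. The 11 genes of the dentate granule lineage summed to 2512 and 1849 TPM in wild type, 1447 and 1457 TPM in heterozygous and 1262 and 1213 TPM in homozygous libraries, and did not overlap without Igfbpl1 either (1958 and 1520 TPM against 989 to 1197 TPM). Of the 11, 10 had a log2 difference below 0 in heterozygous and 8 in homozygous libraries (59.8% and 55.2% of all genes). Neurod1 is also in the intermediate progenitor list and Dcx in the newborn neuron list. Intermediate progenitor markers (8 genes) summed to 1047 and 666 TPM in wild type and 545 to 618 TPM in floxed libraries, but overlapped without Neurod1 (654 and 432 TPM against 372 to 457 TPM). Newborn neuron markers (12 genes) overlapped, at 5235 and 6501 TPM in wild type, 4602 and 5475 TPM in heterozygous and 4675 and 4688 TPM in homozygous libraries. The 10 markers of neuroepithelium and hippocampal progenitors summed to 3072 and 3052 TPM in wild type and 3126 to 3616 TPM in floxed libraries, with most of the sum from Fabp7 (2268 to 3008 TPM). Without Fabp7 the sums were 804 and 574 TPM in wild type and 544 to 608 TPM in floxed libraries, and 6 of 10 of these markers had a log2 difference below 0 in each floxed genotype.

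Microglia, astrocyte and motile ciliated cell markers summed to more in every floxed library than in either wild type library, also without the most abundant gene of each list. Microglia and macrophage markers (10 genes) summed to 179 and 213 TPM in wild type, 441 and 286 TPM in heterozygous and 360.14 and 370.39 TPM in homozygous libraries. Astrocyte markers (8 genes) summed to 1626 and 1880 TPM in wild type and 2627 to 3562 TPM in floxed libraries, and motile ciliated cell markers (8 genes) to 12.01 and 8.70 TPM against 154 to 429 TPM. Of the last, 2 of 8 were called higher by limma in each floxed genotype against wild type, and no gene of the other cell type lists was called in these comparisons. Choroid plexus markers (8 genes) summed to 54.7 and 31.8 TPM in wild type, 11799 and 46.5 TPM in heterozygous and 6742 and 298 TPM in homozygous libraries. Without the 2 libraries richest in Ttr, 7 of 10 receptors had both remaining floxed libraries below wild type, against 32.4% of all genes. Epha5, Epha8 and Ephb4 did not, and in homozygous replicate 2 Epha8 (14.7 TPM) and Ephb4 (9.82 TPM) lay between the wild type libraries. Sums for the oligodendrocyte lineage (9 genes) were 170.05 and 257 TPM in wild type and 288 to 404 TPM in floxed libraries, but overlapped without Olig1 (94.2 and 139 TPM against 127 to 239 TPM). In heterozygous against wild type libraries 4 of these 9 genes had a log2 difference below 0. Mature excitatory neurons (8 genes, 1343 to 2620.04 TPM), GABAergic neurons (8 genes, 299.62 to 491 TPM) and meninges and fibroblasts (8 genes, 48.5 to 308 TPM) overlapped between the genotypes. No marker in these lists was at 0 in every library, and the part of cell composition in the receptor levels was not tested.

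**Figure D5:**
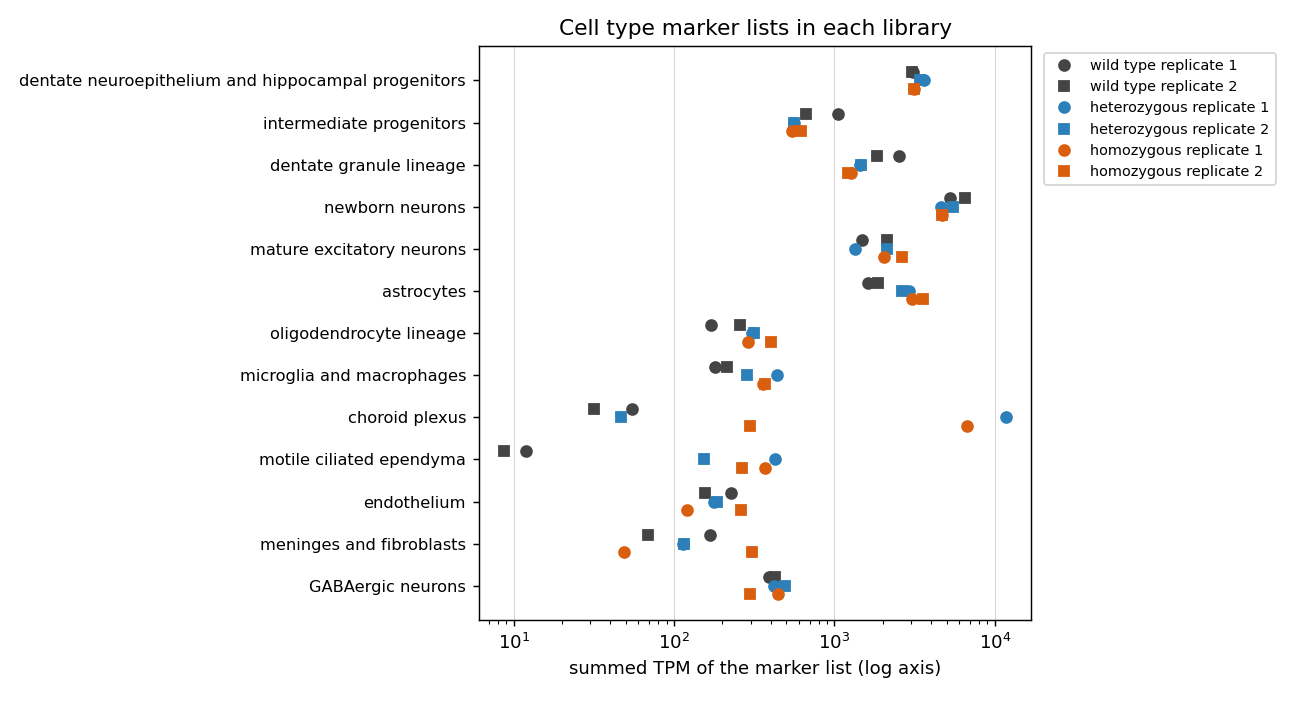
Points give the summed TPM of 13 marker lists in each library on a log axis (x axis, summed TPM; y axis, list; colour, genotype; circles, replicate 1; squares, replicate 2). Granule lineage sums are highest in wild type, astrocyte, microglia and motile cilia sums are lowest there, and choroid plexus sums reach 11799 and 6742 TPM in 2 libraries.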

How the data were processed

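The deposited table holds TPM for 35274 genes in 6 libraries, 1 column each, deposited by the authors with Ensembl identifiers and symbols. The design text among the labels names TopHat 2.0.11 for alignment (mm10), then Cufflinks 2.2.1 with RefSeq transcripts. The submitters' processing notes name FastQC and RSEM with mm10 and GRCm38, so which tool made the TPM is not settled. TPM keeps no depth, so no counting interval was computed, and an abundant transcript lowers all others in its library. Groups came from the sample titles.

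The 14518 genes averaging 1 TPM or more entered limma 3.58.1 in R 4.3.3 as log2(TPM + 1), which understates changes of low genes. The model had a term per genotype, or a slope per allele, with an intensity trend and Benjamini-Hochberg adjustment at 0.05 over all genes, leaving 3 residual degrees of freedom (4 for the slope). The test was checked on simulated data with independent noise for each gene, which hold no differences shared by many genes within a library. Positions came from GENCODE vM21 (GRCm38) by identifier, and promoters from RefSeq (GRCm38.p6). Alternatives were another pseudocount, other filters, trimmed-mean rescaling, no trend, a replicate block, only the libraries of both genotypes compared, and leaving out libraries.

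All 10 members are named, and of each pathway list up to 4 genes with the smallest p of the trend. Likeness to Epha4 was ranked by Pearson r, skipping predicted and mitochondrial genes. The members and lists were chosen with earlier results of these data known. CCAAT was searched after the promoters had been seen.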

Additional observations from a re-analysis of the deposited data

How the results depend on the processing

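The counts of called genes hung on the settings. Over all genes, heterozygous against wild type gave 5 calls, and 49 with a pseudocount of 0.1, 1 with no filter, 9 with the replicate block, 152 without both Ttr-rich libraries (heterozygous replicate 1 and homozygous replicate 1) and 3 to 397 without 1 library. Homozygous against wild type gave 6 calls, and 149 with a pseudocount of 0.1, 3 with no filter, 283 with the replicate block, 393 with the libraries of those 2 genotypes only, 491 without both Ttr-rich libraries and 3 to 397 without 1 library. Homozygous against heterozygous gave 2, and 1 with no filter or without an intensity trend, 12 without both Ttr-rich libraries and 1 to 5 without 1 library. The trend gave 2, and 0 with no filter, 1 without an intensity trend, 6 with the replicate block, 252 without both Ttr-rich libraries and 0 to 554 without 1 library. The high counts without 1 library came when a heterozygous library was left out. In homozygous against wild type these fits nearly repeat the fit of those 2 genotypes only (393 calls). A lone heterozygous library has its own mean there and adds nothing to the spread, so these counts do not single out 1 library. Why the counts differ from those with all 6 libraries was not tested.

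Of the receptors, homozygous against wild type called 1 (Epha4, limma adjusted p = 0.0435) with the replicate block. It called 2 (Epha4 and Ephb2) with the libraries of those 2 genotypes only, a fit that leaving out either heterozygous library nearly repeats. Leaving out 1 library gave 0 to 1 in heterozygous against wild type and 0 to 2 in the trend, and no other setting called a receptor. The titles share replicate numbers, but nothing ties them to a litter or day. Deviations of same-numbered libraries correlated at 0.21 (wild type with heterozygous), -0.088 (wild type with homozygous) and 0.35 (heterozygous with homozygous). These values cannot settle whether the libraries were paired, and the block was used as an alternative only.

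The counts of receptors below wild type without overlap, whose alternatives were chosen after seeing the data, stayed within 1.5 times (7 to 10), but the shares of all genes beside them moved more, from 16.9 to 44.5% for all floxed libraries. Of 40 receptor differences over 4 comparisons, 23 kept their sign in every alternative. The others turned, none of them called, as Epha5 did in heterozygous against wild type tissue with rescaling (0.064) and the rest when libraries were left out. Without 1 library or without both Ttr-rich ones, the log2 differences ran as follows. Heterozygous against wild type gave -0.19 to 0.18 for Epha5 and -0.37 to 0.064 for Ephb4. Homozygous against wild type gave -0.21 to 0.22 for Epha5, -0.55 to 0.073 for Epha8 and -0.57 to 0.068 for Ephb4. Homozygous against heterozygous gave -0.19 to 0.020 for Epha3, -0.049 to 0.15 for Epha4, -0.21 to 0.22 for Epha5, -0.051 to 0.075 for Epha7, -0.14 to 0.27 for Ephb1, -0.12 to 0.030 for Ephb2, -0.028 to 0.15 for Ephb3, -0.42 to 0.37 for Ephb4 and -0.0045 to 0.066 for Ephb6. The slope gave -0.091 to 0.099 for Epha5, -0.33 to 0.00065 for Epha8 and -0.27 to 0.0076 for Ephb4. Rescaling used an unweighted trimmed mean of log ratios, and TPM leaves the depth behind each value unknown.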
